A study of Mus musculus with 17 samples.

Results

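This section describes 31 genes of the mouse heart whose level was higher in every one of 10 bsg hearts than in any of 7 wild-type (WT) hearts. They were chosen by their measured CPM (a gene's count in every 1000000 counts of its library), out of 41096 genes in the table. A gene had to lie on an autosome, its lowest CPM over the bsg libraries had to exceed its highest over the WT libraries, and its mean in bsg had to be at least 1 CPM. Genes that start in 4 windows, on chromosome 5 from 60 to 110 Mb, chromosome 2 from 160 Mb, chromosome 4 from 30 to 60 Mb and chromosome 19 from 20 to 60 Mb, were left out. The genotype difference of these genes is therefore what selected them, and it is given below as a description. Counts of genes called between the genotypes in a fit to all genes are printed only beside their background, and support nothing.

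RNA was taken from whole hearts of mice 4 months old, on a background given as C57BL/6. WT hearts came from 4 females and 3 males, bsg hearts from 5 of each sex, and no treatment is named. The labels give the genotype only as bsg or wild-type, and name no allele, no promoter and no relation between the WT and the bsg animals. The design text speaks of biological replicates, though of fewer than the 5 in each bsg group, and each library is read here as a separate animal. Titles also hold a number of unstated meaning, called the title number below. In every group some libraries share a title number, and no title number is shared between groups. A difference between sexes or genotypes is thus not separated from a difference between title numbers. The series title places the mice in a study of a genetic cardiomyopathy and of heart injury in males.

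A genetic cardiomyopathy is a disease of the heart muscle that begins with an inherited mutation. Heart tissue holds muscle cells beside fibroblasts, endothelial cells, smooth muscle cells and immune cells, and RNA of the whole organ sums over all of them. In such bulk samples, more cells of a type and more RNA per cell cannot be told apart. In a mouse line kept by crossing, the DNA next to a mutated gene is inherited together with it. Genes in such a stretch can differ from a control stock by linkage alone. The windows lie on different chromosomes and were drawn from earlier results of the same data. Which of them, if any, holds the mutated gene was not tested. Genes away from the windows are looked at separately. The table pairs no ID with a gene name, and 0 of its IDs were found in the name tables used here. What the 31 genes encode is thus not given, markers of heart or of other cell types were not looked up, and no sequence is printed.

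Each library held between 13886399 and 17554850 counts, with a median of 15736903, and between 18597 and 20589 genes with a count. On the first principal component (41.4% of the variance in log2 CPM) 3 libraries scored highest, bsg female replicate 2 at 57.1, WT female replicate 2 at 38.2 and WT male replicate 2 at 16.7. The other 14 lay between -21.6 and 8.46. All 31 genes kept the gap between the genotypes without these 3 libraries, as leaving out libraries cannot close it. Titles end in an S number of unstated meaning, with a median of 13 in WT and 7.5 in bsg, and its part in the genotype difference was not tested.

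Of 12335 autosomal genes outside the windows with a mean of at least 1 CPM in bsg, 31 met the rule, or 0.251%. Inside the windows, 26 of 799 such genes had the same lack of overlap, or 3.25%. The windows and the rule both follow earlier results of the same data, so the shares are given with no test. Whether a gene counts as outside the windows rests on their borders, and linkage to the mutated gene was not tested. The gene numbered 10 below starts 73259 bp beyond the border of the chromosome 5 window at 110 Mb, while the other 4 genes on windowed chromosomes lie between 33.0 and 87.0 Mb from a window. Many genes with as large a ratio of means did not qualify. Among the 12335 genes, 185 had a mean in bsg of at least 1.5 times the mean in WT, and 12 of them had no overlap between the genotypes. At a ratio of at least 2 there were 63 genes, and 4 of them are among the 31.

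**Figure D1:**
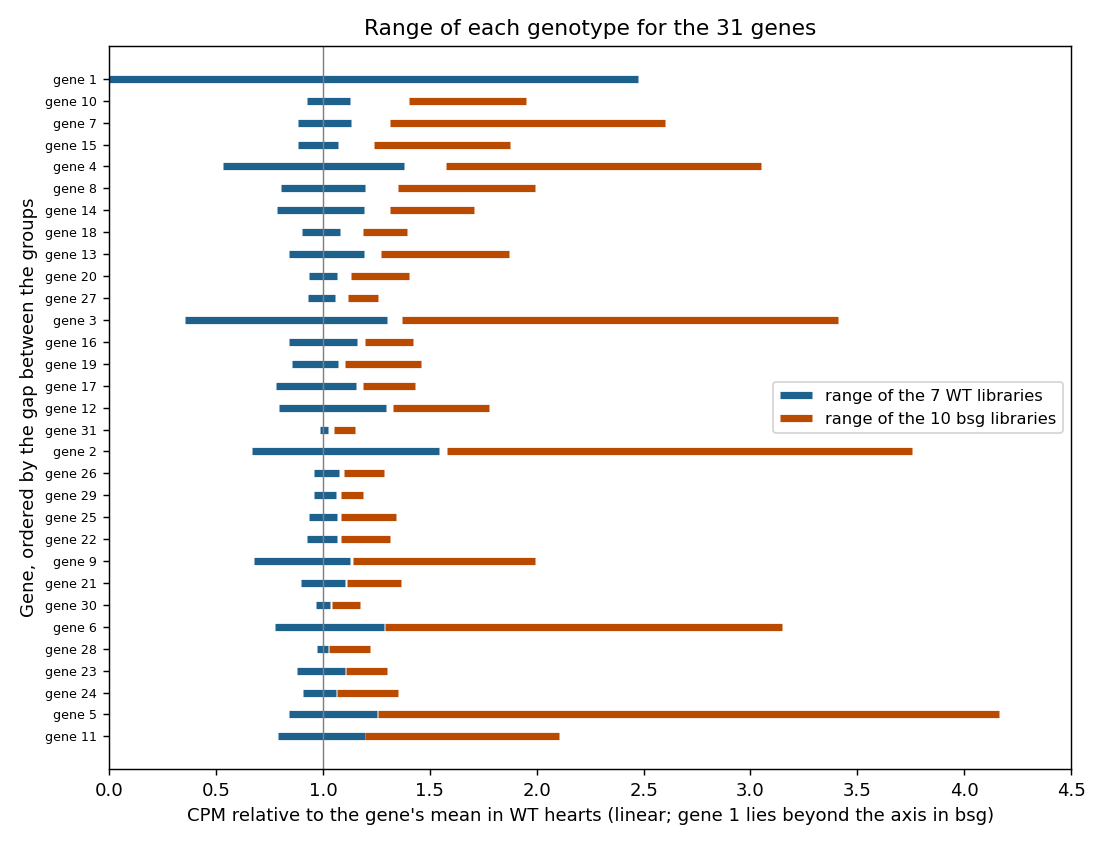
Range of CPM over the 7 WT libraries (blue) and the 10 bsg libraries (orange) for the 31 genes, as multiples of each gene's mean in WT on a linear axis, ordered by the gap between the genotypes (widest at the top). The ranges of gene 1, gene 10 and gene 7 stand clearest apart, while those of gene 11 and gene 5 almost touch; the bsg range of gene 1 lies beyond the axis.

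The genes are numbered 1 to 31 by the ratio of mean CPM in bsg to mean CPM in WT. The ratio ran from 1.09 to 9.26, and 9 genes lay under 1.2, 10 between 1.2 and 1.5, 8 between 1.5 and 2 and 4 at 2 or more. The median log2 ratio was 0.40, against -0.01 over the 12335 genes. The ratio alone does not tell how far apart the genotypes stood. The lowest bsg library was at least 1.1 times the highest WT library for 8 genes, and over the 31 genes the median of this quotient was 1.03. Just inside the rule lay gene 11, with a lowest bsg value of 14.69 CPM over a highest WT value of 14.68 CPM. Gene 5 stood at 8.83 over 8.81 CPM and gene 24 at 45.7 over 45.5 CPM. Just outside it lay a gene on chromosome 11 (128817847 to 128833420), with 345.1 against 345.6 CPM, and genes on chromosome 2 (87748663 to 87793518), with 136.3 against 136.7 CPM, and on chromosome 19 (8314791 to 8338979), with 298 against 299 CPM. The 3 genes with the lowest mean in bsg were gene 1 at 1.28, gene 3 at 4.21 and gene 21 at 6.91 CPM. Only 2 genes without overlap failed by their level alone. Both are on chromosome 6, starting at 36672169 (mean in bsg 0.827 CPM, listed at 0 in every WT library) and at 135935973 (0.552 against 0.160 CPM). On the X chromosome, which the rule leaves out, 2 further genes had no overlap, starting at 34106685 (313 against 278 CPM) and 16184043 (6.91 against 3.01 CPM). Their lowest bsg values were 290.2 and 4.01 CPM, over highest WT values of 290.1 and 3.82 CPM. The number of X genes of at least 1 CPM in bsg is not given here, so this count has no share beside it.

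Gene 1 had the largest ratio and the lowest level. It is a gene of 1 exon on chromosome 6 (46975506 to 46976639) on the plus strand, with an exonic length of 1134 bp. In the 4 WT females it stood at 0, 0.342, 0 and 0.259 CPM and in the 3 WT males at 0.134, 0 and 0.234 CPM. In the 5 bsg females it stood at 1.63, 1.65, 0.856, 1.53 and 1.21 CPM and in the 5 bsg males at 1.43, 1.24, 1.29, 1.14 and 0.864 CPM. Every bsg heart thus had a low but measurable level, and 3 WT hearts had no count, which at their depth allows up to 0.189 to 0.204 CPM (3 counts, for counting error only). The values rest on 15 counts in all of WT and on 12 to 29 counts in each bsg library. The ratio of pooled CPM was 9.35, and the low counts in WT limit its precision.

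Gene 2, MGP_C57BL6NJ_G0028037 on chromosome 3 (100989296 to 100993222, plus strand, 6 exons, exonic length 3123 bp), was 1 of the most abundant of the 31 and varied most between hearts in absolute terms. It stood at 495, 314, 363 and 534 CPM in the WT females and at 713, 308 and 506 CPM in the WT males. In the bsg females it stood at 1733, 1544, 1315, 888 and 768 CPM, and in the bsg males at 794, 729.6, 798, 1310.5 and 1447 CPM. The mean was 1133 ± 376 CPM in bsg (SD, n = 10) and 462 ± 145 CPM in WT (SD, n = 7), a ratio of 2.45. Within bsg the hearts fell into a higher set of 5, from 1310.5 to 1733 CPM, and a lower set of 5, from 729.6 to 888 CPM, with both sexes in each. The lowest bsg heart was close to the highest WT heart, WT male replicate 1.

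Gene 3 lies on chromosome 9 (53106053 to 53112437, minus strand, 2 exons, exonic length 5614 bp) and had a low level throughout. The WT females stood at 2.33, 1.64, 0.637 and 1.36 CPM and the WT males at 2.08, 2.25 and 2.23 CPM. The bsg females stood at 4.07, 5.13, 5.99, 6.10 and 4.39 CPM and the bsg males at 3.21, 2.91, 3.32, 4.48 and 2.45 CPM. The bsg females were the highest group, and 4 of the 5 bsg males lay below all bsg females. The ratio of means was 3.44 in females and 1.4998 in males.

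Gene 4 is MGP_C57BL6NJ_G0040270 on chromosome 6 (67776878 to 67800026, plus strand, 3 exons, exonic length 1802 bp). It stood at 3.65, 3.49, 1.91 and 4.08 CPM in the WT females and at 4.83, 2.31 and 4.98 CPM in the WT males. In the bsg females it stood at 7.27, 6.89, 10.998, 7.88 and 10.4 CPM, and in the bsg males at 6.66, 6.25, 6.34, 5.68 and 6.27 CPM. The 5 bsg males were close to each other and all lay below the lowest bsg female. The mean was 7.47 ± 1.82 CPM in bsg (SD, n = 10) and 3.61 ± 1.17 CPM in WT (SD, n = 7).

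Gene 5 on chromosome 16 (14470034 to 14472278, minus strand, 3 exons, exonic length 1107 bp) had a ratio of 1.89, with a pair of bsg hearts far above the rest. The bsg females stood at 8.83, 29.3, 9.48, 9.28 and 26.9 CPM, and the bsg males at 11.8, 10.5, 8.86, 8.91 and 8.93 CPM. That pair was replicates 2 and 5 of the bsg females, and the range of the other 8 was 8.83 to 11.8 CPM. The WT females stood at 8.81, 7.40, 6.31 and 6.53 CPM and the WT males at 5.90, 7.82 and 6.45 CPM, so that most bsg hearts were only slightly above WT. The mean in bsg was 13.3 ± 7.88 CPM (SD, n = 10), and the median 9.38 CPM against 6.53 CPM in WT. One of that pair, bsg female replicate 2, is the library highest on the first principal component.

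Gene 6 on chromosome 11 (126002985 to 126006953, minus strand, 4 exons) also had single high hearts. The bsg males stood at 7.79, 8.10, 9.78, 18.4 and 12.7 CPM and the bsg females at 8.89, 13.7, 7.57, 8.77 and 9.16 CPM. All 7 WT hearts lay between 4.56 and 7.53 CPM. Gene 7 on chromosome 15 (38234675 to 38241422, minus strand, 4 exons) separated the genotypes more widely. Its 7 WT hearts lay between 14.8 and 18.98 CPM. Its bsg females stood at 43.7, 40.5, 30.4, 23.1 and 26.3 CPM and its bsg males at 28.5, 22.1, 24.9, 28.7 and 29.5 CPM. For gene 7, as for gene 2, replicates 1 and 2 of the bsg females were the highest of all hearts. The titles of both hold the same number, which the labels do not explain.

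**Figure D2:**
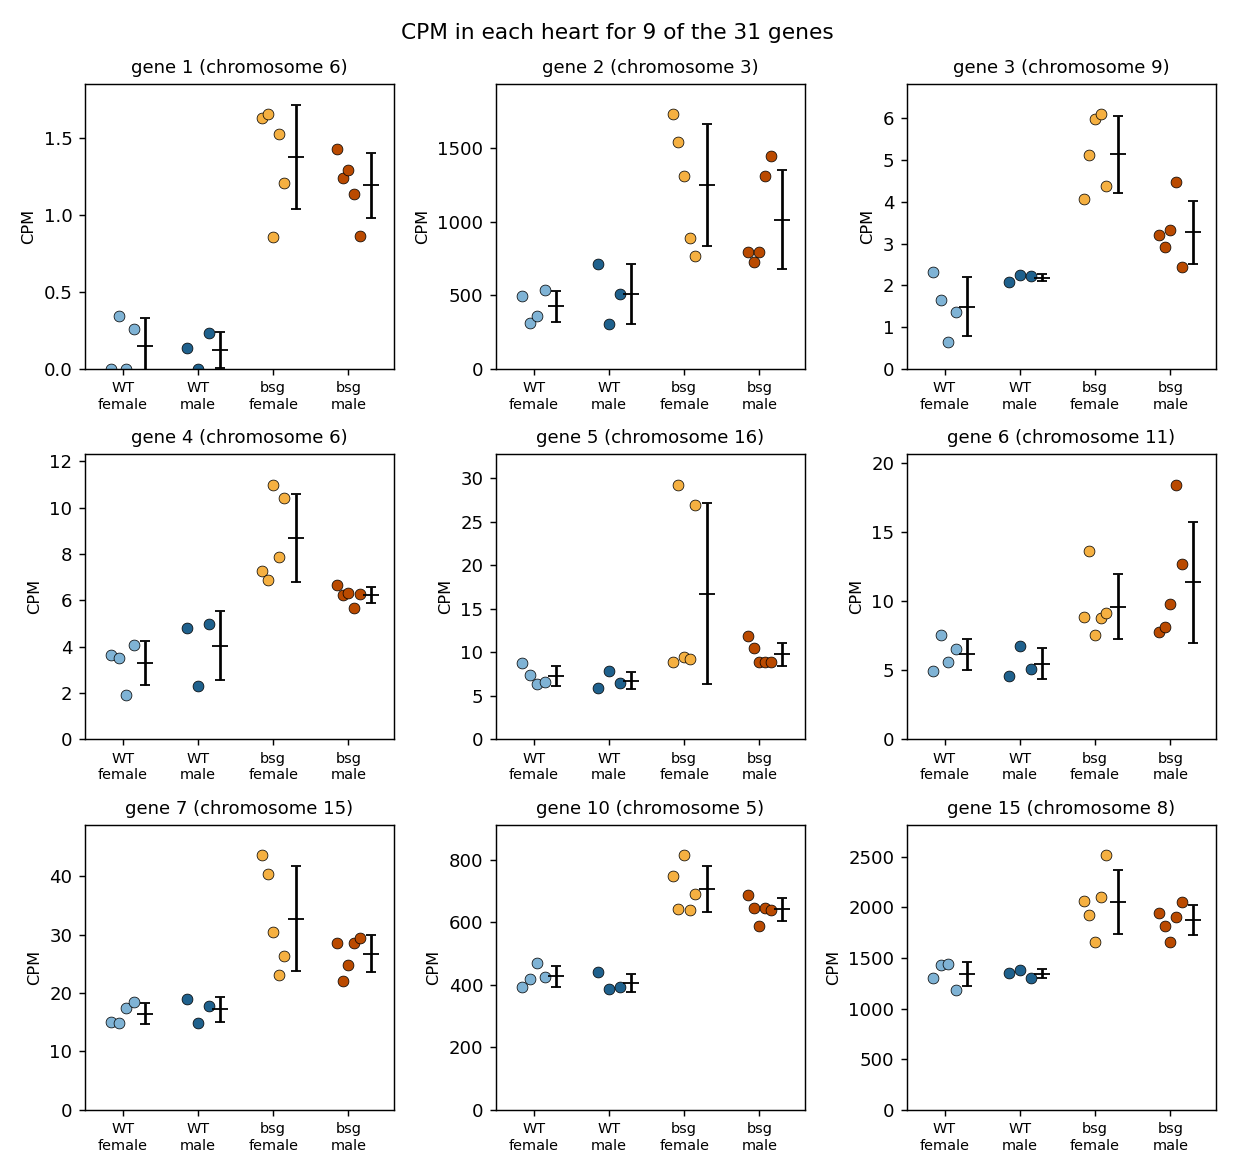
CPM (linear axis from 0) of 9 of the 31 genes in each heart, by genotype and sex, with the group mean ± SD in black beside the points (n = 4, 3, 5 and 5 from left to right). Gene 5 shows 2 bsg females far above the other bsg hearts, gene 2 splits the bsg hearts into a higher and a lower set, and genes 10 and 15 separate the genotypes with little spread within groups.

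The 10 genes with the highest mean CPM in bsg were genes 15, 2, 20, 10, 18, 12, 29, 28, 17 and 25. Most of them had a small ratio and a small spread. Gene 15 on chromosome 8 (12870040 to 12942259, plus strand, 40 exons, exonic length 8875 bp) was the most abundant. It stood at 1302, 1428, 1437 and 1184 CPM in the WT females and at 1351, 1383 and 1298 CPM in the WT males. In the bsg females it stood at 2059, 1921, 1658, 2106 and 2514 CPM, and in the bsg males at 1946, 1816, 1659, 1901 and 2054 CPM. The mean was 1964 ± 248 CPM in bsg and 1341 ± 88.3 CPM in WT (SD, n = 10 and 7), a ratio of 1.46, and the lowest bsg heart was 1.15 times the highest WT heart.

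Gene 10 on chromosome 5 (110073259 to 110118178, minus strand, 12 exons, exonic length 2937 bp) had the widest gap after gene 1. It stood at 393, 420.0, 472 and 425 CPM in the WT females and at 441, 388 and 391.8 CPM in the WT males. In the bsg females it stood at 749, 645, 816, 639 and 689.8 CPM, and in the bsg males at 689, 646, 587, 647 and 639.5 CPM. No heart came near the other genotype, and the ratio was 1.66 in females and 1.58 in males. This is the gene next to the border of the chromosome 5 window, and with windows widened by 1 Mb on each side it alone leaves the set.

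Genes 20 and 18 had nearly the same ratio, 1.27 and 1.28. Gene 20 on chromosome 11 (116651040 to 116672394, plus strand, 13 exons) ran from 668 over a median of 730.2 to 764 CPM in WT and from 809 over 914 to 1003 CPM in bsg. Gene 18 on chromosome 2 (126956303 to 127021732, minus strand, 9 exons) ran from 474 over 522 to 566 CPM in WT and from 623 over 663 to 732 CPM in bsg. In both, the step between the genotypes was larger than the SD within either, which a rule of no overlap favours. Gene 12 on chromosome 10 (11203405 to 11223007, plus strand, 8 exons) had a larger ratio, 1.58, and more spread, with 175 to 285 CPM in WT and 293 to 391 CPM in bsg. The ratio of the other 4 abundant genes was 1.29 for gene 17 on chromosome 11 (106877999 to 106933118), 1.18 for gene 25 on chromosome 16 (13483364 to 13543930), 1.14 for gene 28 on chromosome 11 (127411972 to 127431188) and 1.13 for gene 29 on chromosome 4 (147038254 to 147146444).

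Compared per length, as mean CPM per kb of exon in bsg, the order changed. Gene 2 was highest at 363 CPM per kb, followed by gene 10 at 229.7, gene 15 at 221, gene 20 at 211 and gene 18 at 167. At the other end stood gene 3 at 0.749 CPM per kb and gene 1 at 1.13. The 31 genes thus spanned low and high levels of the heart's RNA.

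Of the remaining genes with a ratio of at least 1.5, gene 8 on chromosome 11 (94713260 to 94719404, 3 exons) stood at 11.1 to 16.5 CPM in WT and 18.6 to 27.4 CPM in bsg. Gene 9 on chromosome 12 (94839914 to 95238176, 33 exons) stood at 10.3 to 17.03 CPM in WT and 17.3 to 30.1 CPM in bsg. Gene 11 on chromosome 3 (90568749 to 90581716, 9 exons) stood at 9.67 to 14.7 CPM in WT and 14.7 to 25.8 CPM in bsg. Genes 8 and 9 differed in where the border lay: the lowest bsg heart was bsg male replicate 4 for gene 8 and bsg male replicate 5 for gene 9.

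Genes 13, 14, 16 and 19 had ratios of 1.496, 1.47, 1.32 and 1.27. Gene 13 on chromosome 10 (88342437 to 88381978) stood at 112 to 159 CPM in WT and 169 to 249 CPM in bsg. Gene 14 on chromosome 9 (89981217 to 90103818) stood at 9.93 to 15.1 CPM in WT and 16.7 to 21.7 CPM in bsg. Gene 16 on chromosome 7 (84343934 to 84435247) stood at 33.5 to 46.2 CPM in WT and 47.8 to 56.7 CPM in bsg. Gene 19 on chromosome 4 (139561307 to 139564592) stood at 83.7 to 105 CPM in WT and 108 to 143 CPM in bsg. In gene 16 the WT hearts spread more than the bsg hearts (SD 4.32 and 2.65 CPM), whereas gene 13 and gene 19 spread more in bsg.

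The last 8 genes, numbers 21 to 24, 26, 27, 30 and 31, had ratios of 1.09 to 1.22. Their hearts differed little within a genotype, which a gene of so small a ratio needs to meet the rule. Gene 31 on chromosome 16 (18236685 to 18249491, plus strand, 19 exons) shows this most clearly. It stood at 68.4, 70.9, 68.8 and 69.0 CPM in the WT females and at 69.6, 68.2 and 69.4 CPM in the WT males. In the bsg females it stood at 74.7, 73.8, 74.9, 75.7 and 75.6 CPM, and in the bsg males at 79.5, 74.4, 73.6, 72.8 and 77.7 CPM. The SD of its log2 CPM within groups was 0.034, the smallest of the 30 genes with a count in every library. Gene 5, at 0.518, had the largest.

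**Figure D3:**
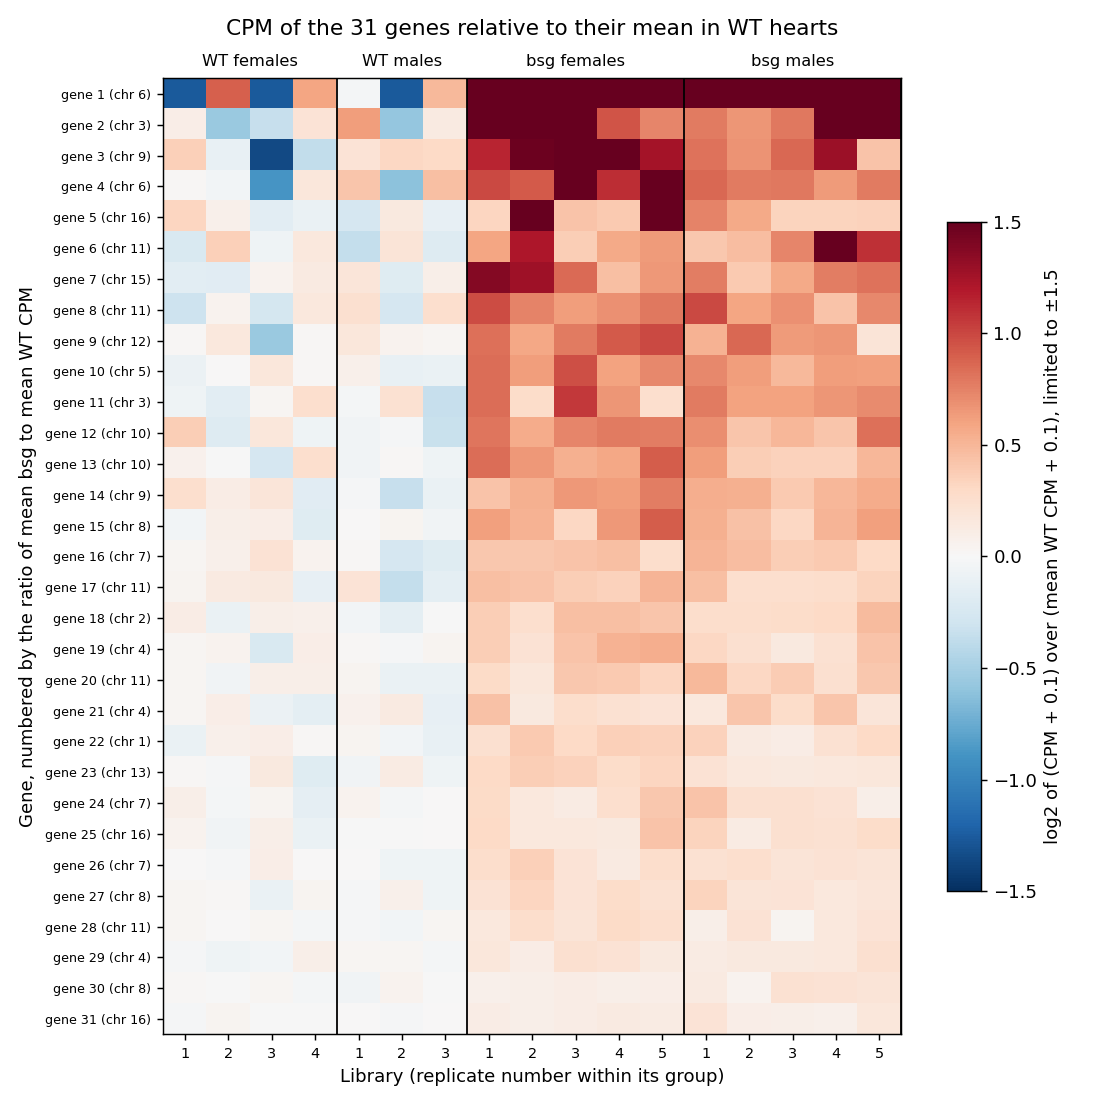
Heat map of the 31 genes (rows, by falling ratio of means) in the 17 libraries (columns, by group), coloured by log2 of CPM over the gene's mean CPM in WT with 0.1 added to both, limited to 1.5 in either direction. All bsg columns are above the WT mean in every row, the upper rows vary between bsg hearts, and the lower rows are pale and even.

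Which genes belong to the set depended on the scaling. The rule uses CPM from plain column totals. With totals scaled by TMM (trimmed mean of M-values), 36 genes met it, and 22 of the 31 were among them. Genes 5, 11, 20, 21, 24, 25, 29, 30 and 31 then overlapped between the genotypes. With RLE (median of ratios) scaling 34 genes met the rule, with 21 of the 31, and gene 23 was lost as well. All 31 genes kept a ratio of means above 1 under both scalings, from 1.096 to 9.44 with TMM. The 8 genes with the widest gap, genes 1, 10, 7, 15, 4, 8, 14 and 18, met the rule under all 3 scalings.

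What the genes share beyond the rule was described without a test. They lay on 15 of the 19 autosomes, with 5 on chromosome 11, 3 each on chromosomes 4, 7, 8 and 16, and 0 on chromosomes 14, 17, 18 and 19. The share on chromosome 11 was 16.1%, where 9.29% of the 12335 genes lie. Strands were even, with 16 genes on the plus and 15 on the minus strand. Median exonic length was 4024 bp against 3807 bp, and the median number of exons 12 against 9. A gene of 1 exon occurred once (3.23%), against 4.75% of the 12335. The level differed more: the median of mean CPM in bsg was 75.3 against 21.4, and 23 of the 31 lay above the median of the 12335. The SD of log2 CPM within groups had a median of 0.120 against 0.149. A rule that asks for no overlap favours genes with small spread and high counts, so these last 2 contrasts cannot be told apart from the choice of genes.

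The 31 genes were scattered, and their neighbours were centred near no difference between the genotypes. Only genes 5 and 25 on chromosome 16 started within 1 Mb of each other, 986670 bp apart. Within 500 kb of the 31 genes lay 321 other genes with at least 1 CPM in either genotype. Their median log2 ratio of bsg to WT was -0.01, the same as over 12448 autosomal genes outside the windows, and 45.8% of them were above 0, against 46.0%. None of the 321 was higher in every bsg heart. Lower in every bsg heart was 1 of them (0.312%), against 42 of the 12448 (0.337%). The absence of higher neighbours is fixed by the rule for the 318 outside the windows. A gene that met it there would be among the 31. The 1 lower neighbour lies 332020 bp from gene 13 on chromosome 10 (88713998 to 88814244), with 58.9 CPM in bsg and 68.1 CPM in WT.

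The largest ratio among the neighbours was that of a gene on chromosome 5 (110463135 to 110469067), 345 kb from gene 10. It stood at 0.629 to 2.25 CPM in WT and at 1.595 to 20.97 CPM in bsg, with means of 1.57 and 6.00 CPM. The highest value, in bsg male replicate 4, raised the bsg mean, and the next was 9.53 CPM in bsg female replicate 4. This neighbour missed the set because 2 bsg females, at 1.595 and 1.97 CPM, were below the highest WT heart. Of the 31 genes, 0 overlapped a gene of at least 1 CPM on the same strand. Genes 19 and 22 each overlapped such a gene on the opposite strand, which was counted apart because counting used strand.

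**Figure D4:**
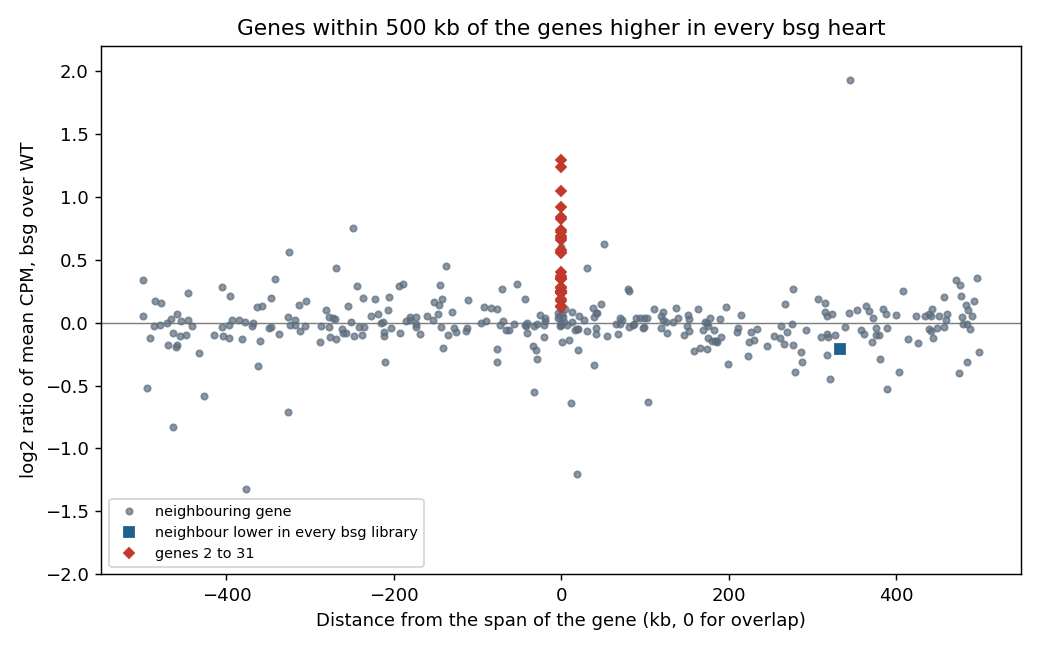
Log2 ratio of mean CPM in bsg over WT for genes within 500 kb of the 31 genes (grey points), against their distance in kb from the span of the gene, with genes 2 to 31 at distance 0 (red). The grey points scatter around 0; the blue square is the 1 neighbour lower in every bsg heart, and the highest grey point is the chromosome 5 gene 345 kb from gene 10.

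The hearts were then compared by how the genes stood within each group, over the 30 genes with a count in every library. In bsg male replicate 1, 22 of 30 genes were above their group mean, with a median deviation of 0.08 on the log2 scale. WT male replicate 1 had the same number above it, with a median of 0.03. In bsg male replicate 3, 7 of 30 were above it, with a median of -0.04, and bsg male replicate 2 was close, with 9 of 30. The other 15 libraries had medians between -0.04 and 0.04. The 3 libraries highest on the first principal component had medians of -0.03, 0.00 and -0.02, within the range of the others. A small median can hide deviations in opposite directions. Among these 3, bsg female replicate 2 was high for genes 5 and 6 and gave the lowest bsg value of 4 genes. The lowest bsg value came from replicate 3 of the bsg males for 7 genes, and from their replicates 2 and 4 for 5 genes each. The highest WT value came from WT female replicate 3 for 8 genes and from WT female replicate 1 for 6. Every WT heart gave the highest WT value of at least 2 genes, so no single heart set the border of the whole set.

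The genotype ratio was set side by side in the sexes, which share no library. The median log2 ratio was 0.43 in females and 0.48 in males, and the ratio was larger in females for 18 genes and in males for 13. Gene 3 differed most, as given above. Genes 2, 4 and 5 had ratios of 2.93, 2.65 and 2.31 in females against 2.00, 1.54 and 1.46 in males. Gene 6 had the reverse order, 1.56 in females and 2.08 in males, and so did gene 16, with 1.23 and 1.46. In a fit of edgeR's quasi-likelihood model to all genes, 23 of the 31 were called higher in bsg among females, against 0.999% of 15013 tested genes. In males 8 of the 31 were called, against 0.293%. Nothing is read from these counts, since the rule used the same contrast. The count in males was 2 without WT male replicate 2, 3 without WT male replicate 3, 5 without WT male replicate 1, bsg male replicate 5 or bsg female replicate 1, and 18 with DESeq2. With libraries summed by title number it was 4 in males and 8 in females.

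**Figure D5:**
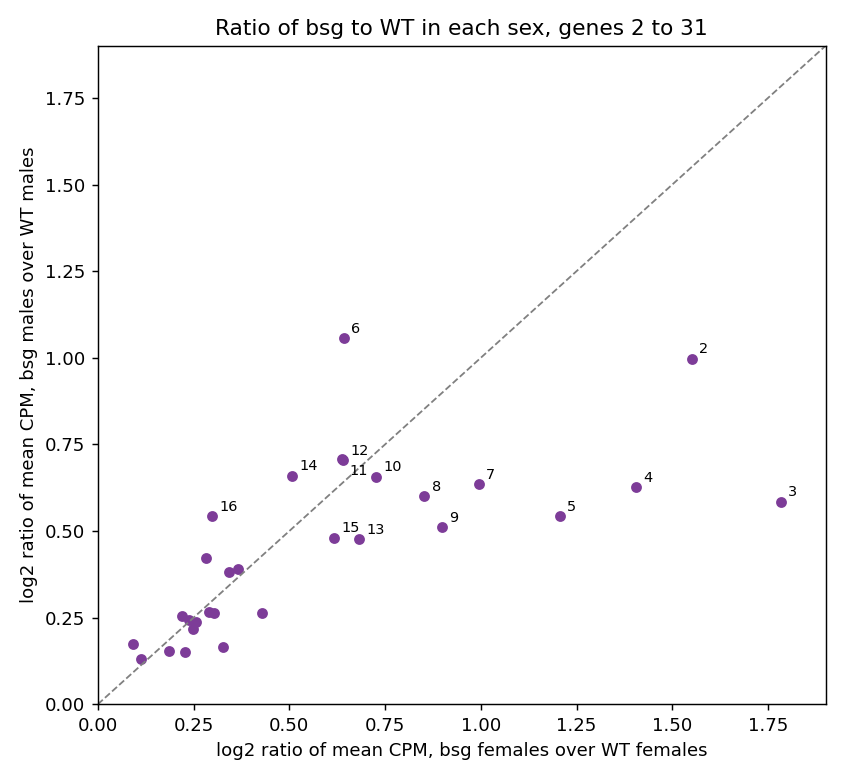
Log2 ratio of mean CPM in bsg over WT in males (vertical) against females (horizontal) for genes 2 to 31, with the line of equal ratios dashed. Genes 2, 3, 4 and 5 lie to the right of the line and gene 6 above it, while most genes with small ratios lie near it; gene 1, at ratios of 9.14 and 9.70, is beyond both axes.

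The rule did not use the labels of sex, and males were tested against females within each genotype. Males and females share no title number, so a sex difference in these tests cannot be told apart from a difference between title numbers. It did ask that all hearts of a genotype lie on 1 side of the other genotype. That sets no bound on a sex difference, but disfavours genes whose sex difference is large beside their genotype difference. A count of 0 below therefore does not show that these genes differ less by sex than others. All 31 genes passed the filter on low counts. Between WT males and WT females, 0 of the 31 were called at an adjusted p under 0.05 by edgeR (Benjamini-Hochberg over 15013 genes), against 0.0599% of all tested genes. At an unadjusted p under 0.05 there was 1 of 31, gene 16, and 810 of 15013. Its mean was 42.6 ± 2.52 CPM over WT females (SD, n = 4) and 36.4 ± 3.66 CPM over WT males (SD, n = 3), a log2 difference of -0.21 (SE 0.07, adjusted p = 0.801 by edgeR). Among genes higher in WT males, gene 3 had the smallest p, with a difference of 0.57 (SE 0.30, adjusted p = 0.947 by edgeR). Between bsg males and bsg females, 0 of 31 were called, against 0.0933%, and 5 had an unadjusted p under 0.05, as did 1873 of 15013. Of these, gene 30 on chromosome 8 (117531633 to 117569887) was higher in males, by 0.12 on the log2 scale (SE 0.04, adjusted p = 0.308 by edgeR). Genes 3, 4, 5 and 13 were lower in males, with gene 3 at -0.61 (SE 0.23, adjusted p = 0.315 by edgeR). Gene 5 is the gene with the pair of high bsg females described above. DESeq2 also called 0 of the 31 in either genotype.

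The last comparison was of the genotype ratio between males and females. Every chosen gene had to be higher in bsg in both sexes, so the choice bars genotype differences of opposite sign. Nothing about the 31 genes is therefore read from the count. By edgeR 0 of 31 genes passed, and over all 15013 genes 0 passed as well (0%). At an unadjusted p under 0.05 there were 3 of the 31 and 776 of 15013, and DESeq2 called 0 of either. Gene 3 had the smallest p among those with a smaller ratio in males, an interaction of -1.18 on the log2 scale (SE 0.38, unadjusted p = 0.00671, adjusted p = 0.888 by edgeR). Gene 4 followed at -0.77 (SE 0.33, adjusted p = 0.888 by edgeR). Gene 16 had the smallest p in the other direction, at 0.26 (SE 0.09, adjusted p = 0.888 by edgeR). The median interaction was -0.01 over the 31 genes and 0.00 over all tested genes, and 13 of the 31 were above 0. The median SE was 0.132 for the 31 genes, and differences in ratio of that size were not detectable here.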

How the data were processed

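The deposited table holds raw counts of paired fragments per gene and was not normalized by the authors. Per the file headers, counting used featureCounts 1.6.2, which required both ends of a pair to align and a mapping quality of at least 10, with strand setting 2 and the Ensembl 109 annotation of C57BL_6NJ_v1, whose coordinates are used here. The submitters' processing notes also name GRCm39, Subread and DESeq2; which aligner made the input is not given in the sources used here. Requiring mapping quality can lower the count of a gene that has near-identical copies. The libraries were stranded total RNA depleted of ribosomal RNA, per the labels' protocols. The table covers 20 chromosomes (1 to 19 and X).

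CPM was computed from each count and its column total. Groups follow the labelled genotype and sex. For tests, counts were filtered with filterByExpr, scaled by TMM and fitted with 1 mean per group to all 17 libraries in edgeR 4.0.16 (R 4.3.3, quasi-likelihood test, two-sided, Benjamini-Hochberg over 15013 genes within each comparison, called at 0.05). The SE is the log2 difference over the square root of F. These p-values measure the spread between these libraries. They take libraries that share a title number as independent, which was not tested. The script was tested on simulated data. DESeq2 1.42.0, RLE scaling, no filter, libraries summed by title number and leaving out each library were alternatives. Principal components used log2(CPM + 0.5) of the 12335 genes. No value column was left unused.

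The 31 genes and all lists were chosen with earlier results of these data known. By the rule for names, IDs were printed for the 2 genes with the largest ratio among those of at least 5 CPM in bsg. Other genes are given by position, namely those with the largest ratio, level or sex difference or closest to the rule's border. Lists of symbols fixed for cell types and pathways could not be applied, because no ID was paired with a name.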

Additional observations from a re-analysis of the deposited data

Results flagged for a closer look

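In 102 sets of values (the CPM of each gene, and 3 library measures, in groups of 4 or 5), 10 had 1 library far from its nearest neighbour relative to the group's whole range. Chance alone gives about 1 such set in 20. For the genes, 7 sets were involved. Gene 6 stood at 13.7 CPM in bsg female replicate 2, where the other bsg females had 7.57 to 9.16 CPM. Gene 18 stood at 489 CPM in WT female replicate 2 (the others 555 to 566 CPM), and bsg male replicate 5 had 732 CPM against 629 to 646 CPM. For gene 23, bsg male replicate 1 had 46.2 CPM against 44.0 to 44.6 CPM. Gene 27 stood at 108 CPM in WT female replicate 3 (the others 118 to 119 CPM), and bsg male replicate 1 had 146 CPM against 129.5 to 134 CPM. For gene 29, bsg male replicate 5 had 293 CPM against 272 to 278 CPM.

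Among the library measures, WT female replicate 2 had 20118 genes with a count (the others 19055 to 19117) and bsg female replicate 2 had 20589 (the others 18767 to 19229). The latter also scored 57.1 on the first principal component, where the other bsg females scored -15.3 to 2.57.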

How the results depend on the processing

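The set was 31 genes by the rule, and between 31 and 50 when each library was left out in turn. It reached 50 without WT female replicate 3 and 48 without bsg male replicate 3. Applied to males alone the rule gave 509 of 12172 genes, and to females alone 279 of 12492. Males had 3 WT and 5 bsg libraries and females 4 and 5. Separation is easier with fewer libraries, so these counts are not compared between the sexes. Without the 3 libraries highest on the first principal component (chosen after seeing the data) the rule gave 81 of 12202 genes. All 31 genes were in each of these sets. Fewer libraries can only ease the demand for no overlap, while a mean in bsg could still have fallen under 1 CPM. The count was 36 with TMM scaling, 34 with RLE scaling, 33 and 30 with a minimum of 0.5 and 2 CPM, and 30 with windows widened by 1 Mb. Members called between the genotypes in males, 8 by edgeR, were 18 with DESeq2, 5 without the filter and 4 with libraries summed by title number. Leaving out single libraries gave 2 to 12, with 5, 2 and 3 without WT male replicates 1, 2 and 3 and 5 without bsg male replicate 5 or bsg female replicate 1. In females, 23 were called by edgeR, 8 with libraries summed by title number and 16 to 21 without single libraries. In both sex comparisons and the interaction, 0 of the 31 were called under every alternative run. The log2 difference kept its sign under all 22 alternatives for genes 3 and 16 in WT, genes 3 and 30 in bsg, and genes 3 and 16 in the interaction. The other genes named there were also fitted under these alternatives, and their single values are not given here. Over all tested genes, edgeR called 82 between the genotypes in males, 270 in females, 9 between the sexes in WT and 14 in bsg. DESeq2 called 233, 544, 39 and 125, and edgeR on libraries summed by title number 38, 60, 6 and 4. No paired analysis was possible because the numbers in the titles are not shared between groups. Low counts limit gene 1, with 15 counts over all WT libraries.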
